A study of Mus musculus with 32 samples.

Results

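Wild-type B cells from mouse spleen were compared after 3.5 and after 2.5 days of culture with IL4 and LPS, a comparison that takes 6 of the 32 RNA sequencing libraries of the series. The libraries were chosen by their labels alone: wild-type (WT) spleen B cells in IL4 and LPS, at day 3.5 (3 libraries) or at day 2.5 (3 libraries), replicates 1 to 3 of each, all from 1 run of library numbers. The series concerns ELOF1, an elongation factor of RNA polymerase II, and DNA damage in B cells that switch their antibody class. Its spleen B cells of the genotype Elof1-cKO (here cKO), a conditional knockout cultured with the same agents for the same times, gave 6 further libraries of that run. They are used here to set the WT change beside the same day step in other libraries of the same run. Every library also received polyadenylated RNA of Drosophila S2 cells, 76 ng per 1000000 cells. The labels do not name the Cre driver, the strain, age or sex of the mice, or how the B cells were purified. They also do not say whether replicates came from separate animals, so that p-values measure the spread between these libraries, which may in part be technical.

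A resting B cell that meets lipopolysaccharide (LPS) through Toll-like receptor 4 grows and divides rapidly. Interleukin 4 (IL4), acting through the transcription factor STAT6, opens the switch regions of the IgG1 and IgE constant genes, where class switch recombination then starts. After several divisions part of such a culture turns into plasmablasts, antibody-secreting cells in which Blimp1 (Prdm1) and Xbp1 come up and the B cell factors Pax5 and Bach2 go down.

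The 3 day 3.5 libraries held 11110219 to 14967558 mouse counts and the 3 day 2.5 libraries 10160465 to 11067046. Fly counts were 4.49% to 6.60% of mouse counts at day 3.5 and 4.70% to 5.59% at day 2.5. Elof1 had 238, 316 and 499 counts in the day 3.5 libraries and 270, 232 and 598 in the day 2.5 libraries. The cKO libraries had 59 to 89 Elof1 counts at day 3.5 and 58 to 69 at day 2.5, so that the genotype labels held. B cell markers were high in every library, with summed levels of 14459 to 24302 CPM at day 3.5 and 10456 to 13233 CPM at day 2.5 over 8 genes. In this paragraph CPM are counts per 1000000 mouse counts. The 16 markers of macrophages summed to 46.9 to 48.1 CPM at day 3.5 and 48.3 to 55.2 CPM at day 2.5. C1qa, C1qb, C1qc and Vsig4 were at 0 in all 6 libraries, while the other 12 were detected. Mpeg1 averaged 23.04 CPM at day 3.5 and 34.16 CPM at day 2.5, Cd68 12.35 and 7.47 CPM, and Apoe 7.20 and 5.26 CPM. Adgre1 had 15 to 62 counts a library. Of 6 tested members, the edgeR test described below called Cd68 higher at day 3.5 (adjusted p = 0.0033). Mpeg1 (0.0015) and Mrc1 (0.041) were called lower. The 21 markers of T and NK cells summed to 273 to 293 CPM at day 3.5 and 246 to 283 CPM at day 2.5, nearly all of it from Thy1 and Lck, while Cd3d, Cd3e, Cd3g, Cd4 and Trac had 0 to 4 counts a library. The neutrophil genes S100a8, S100a9, Elane, Camp, Ltf and Retnlg were at 0, while Csf3r had 22, 20 and 32 counts in the day 3.5 libraries and 2, 2 and 3 in the day 2.5 libraries.

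Replicate 2 stood apart. The chi-square per degree of freedom over genes, which is 1 where libraries differ by counting error alone, was 16.5 and 15.4 between replicate 2 and the other day 3.5 libraries and 4.87 between replicates 1 and 3. At day 2.5 the values were 6.48 and 7.27 for replicate 2 and 4.78 for the other pair. Counts of calls without each replicate are therefore given with most gene groups below. Same-numbered libraries of the 2 days were treated as pairs. The library numbers of the 2 days did not interleave, so culture time and any difference between those preparations cannot be told apart.

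Of 12851 tested genes, 2174 (16.9%) were called by edgeR's quasi-likelihood test at a Benjamini-Hochberg adjusted p below 0.05. Of these, 1272 (9.9% of tested genes) rose and 902 (7.02%) fell, so that 58.5% of the calls were rises. Scaling to the fly counts in place of the mouse counts gave 570 calls, 69.3% of them rises, and put the median log2 fold change of all tested genes at -0.07 instead of 0.01. Rises were the larger changes. Of the called genes, 317 were 2-fold or more higher and 34 were 2-fold or more lower, and the median log2 fold change was 0.66 among the rises and -0.36 among the falls. In 2167 of the 2174 called genes the 3 pairs had the same sign. Without replicate 1, 2 or 3 (both libraries of the pair) the test called 1039, 1716 and 942 genes. In 33.6% of all tested genes the 3 libraries of one day all lay above the 3 of the other. From here on, a value with ± in parentheses after a gene is its log2 fold change, day 3.5 over day 2.5, with the standard error, and adjusted p-values are from the edgeR test. CPM of single genes are from here on scaled between libraries, as given under data processing.

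**Figure D1:**
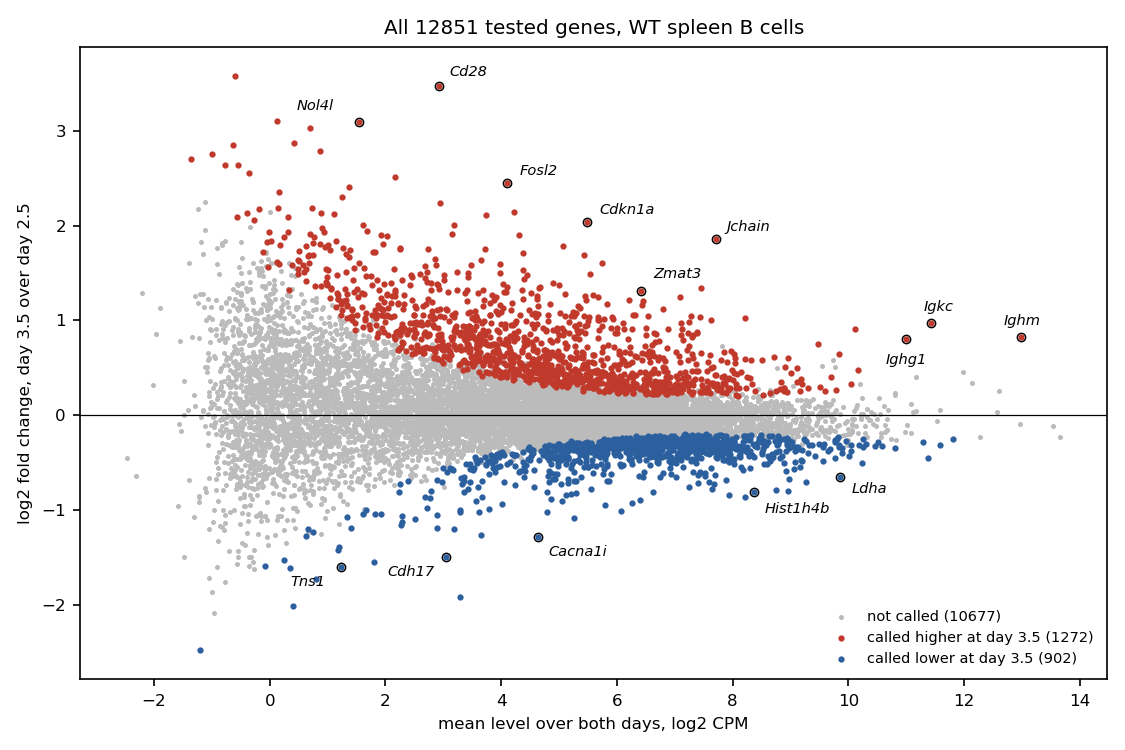
Log2 fold change, day 3.5 over day 2.5, against the mean level over both days (log2 CPM) for the 12851 tested genes in WT cells, with called genes in colour and named genes circled. The called rises reach further from 0 than the called falls, and Igkc, Ighm and Ighg1 are among the most abundant genes that rose.

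The 12 largest rises among called genes with enough counts and no overlap between the days included surface molecules, a cell cycle inhibitor and an AP-1 factor. Cd28, the costimulatory receptor best known from T cells and also carried by plasma cells, was at 13.8, 15.1 and 12.9 CPM at day 3.5 and 1.38, 0.988 and 1.38 CPM at day 2.5. The lowest day 3.5 library lay far above the highest day 2.5 library. Cd28 rose by 3.47 ± 0.24 on the log2 scale (adjusted p = 3.5e-07), which is 11.1-fold. Fosl2, an AP-1 subunit of the FOS family, was at 32.5, 27.95 and 27.1 CPM at day 3.5 and 4.94, 5.03 and 5.96 CPM at day 2.5. Fosl2 rose by 2.45 ± 0.18 on the log2 scale (adjusted p = 4.9e-07). Cst7, which encodes the cathepsin inhibitor cystatin F, averaged 30.6 ± 3.85 CPM at day 3.5 and 6.89 ± 0.610 CPM at day 2.5 (SD, n = 3 each). Cst7 rose by 2.15 ± 0.13 on the log2 scale (adjusted p = 1.2e-07). Large rises also included Jag2, a Notch ligand (2.24 ± 0.23), Fam20c, a kinase of secreted proteins (2.12 ± 0.16), and Ptpn5, a tyrosine phosphatase (2.41 ± 0.45). Others were Nol4l (3.09 ± 0.40), Mctp1, a C2-domain membrane protein (2.30 ± 0.41), the axonemal dynein chain Dnah12 (2.51 ± 0.33), the intermediate filament gene Nes (2.12 ± 0.56) and Gas7 (2.01 ± 0.33). Cdkn1a, the remaining one, is given with the cell cycle. Nes was not called without replicate 1 (adjusted p = 0.15), while the other named rises of this group were called without each replicate in turn.

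The 12 largest falls were smaller. Cacna1i, a subunit of T-type calcium channels, was at 12.9, 15.6 and 14.5 CPM at day 3.5 and 30.2, 44.2 and 31.003 CPM at day 2.5, with no overlap between the days. Cacna1i fell by 1.29 ± 0.11 on the log2 scale (adjusted p = 3.9e-06). Cdh17, a cadherin, was at 3.23, 4.71 and 4.99 CPM at day 3.5 and 10.1, 12.3 and 14.1 CPM at day 2.5. Cdh17 fell by 1.50 ± 0.18 on the log2 scale (adjusted p = 4.1e-05). Fcrl5, an Fc receptor-like protein of B cells, averaged 24.5 ± 2.59 CPM at day 3.5 and 51.9 ± 6.03 CPM at day 2.5 (SD, n = 3 each). Fcrl5 fell by 1.08 ± 0.09 on the log2 scale (adjusted p = 1.9e-06). Other large falls were in Tns1, a focal adhesion protein (-1.60 ± 0.33), Xkrx (-1.55 ± 0.31), the transcriptional repressor Gfi1b (-1.39 ± 0.39) and the short-chain fatty acid receptor Ffar2 (-1.26 ± 0.20). The rest were the carbonic anhydrase Car2 (-1.20 ± 0.18), Pglyrp2, an enzyme that cleaves peptidoglycan (-1.19 ± 0.21), Lrrc25 (-1.16 ± 0.23), the atypical chemokine receptor Ackr3 (-1.13 ± 0.25) and the peroxisomal thiolase Acaa1b (-1.09 ± 0.20). Gfi1b was not called without replicate 1 or 3 (adjusted p = 0.14 and 0.22), nor was Ackr3 (0.051 and 0.079).

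Immunoglobulin RNA went up over the day, for the heavy chain, the light chains and the joining chain. Ighm, the IgM heavy chain constant gene, was at 7865, 15213 and 8165 CPM at day 3.5 and 5078, 6938 and 5005 CPM at day 2.5. Ighm rose by 0.82 ± 0.10 on the log2 scale (adjusted p = 4.5e-05), which is 1.77-fold. Igkc, the kappa light chain constant gene, was at 2756, 5266 and 3085 CPM at day 3.5 and 1533, 2274 and 1704 CPM at day 2.5. Igkc rose by 0.97 ± 0.09 on the log2 scale (adjusted p = 4.4e-06). Replicate 2 was the highest library of its day for both genes, and the days did not overlap. Iglc2, a lambda constant gene, averaged 154 ± 20.7 CPM at day 3.5 and 81.2 ± 3.42 CPM at day 2.5 (SD, n = 3 each). Iglc2 rose by 0.91 ± 0.09 on the log2 scale (adjusted p = 7.3e-06). Jchain, the small protein that joins IgM and IgA into polymers, was at 222.03, 525 and 249 CPM at day 3.5 and 74.6, 122 and 68.2 CPM at day 2.5. Jchain rose by 1.85 ± 0.10 on the log2 scale (adjusted p = 5e-08), which is 3.62-fold. Here too replicate 2 stood highest on both days, and each of the 3 pairs rose. The summed constant genes took 1.39%, 2.43% and 1.43% of mouse counts at day 3.5 and 0.846%, 1.15% and 0.820% at day 2.5. The exact 2-sided permutation p of 0.1 is the smallest that 3 libraries against 3 can give (0.45 adjusted over 9 measures). In bulk RNA, more cells of a kind and more RNA per cell cannot be told apart.

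Both isotypes that IL4 induces rose beside IgM. Ighg1, the IgG1 constant gene, was at 2349, 3296 and 2203 CPM at day 3.5 and 1497, 1668 and 1281 CPM at day 2.5. Ighg1 rose by 0.80 ± 0.08 on the log2 scale (adjusted p = 1.1e-05). Ighe, the IgE constant gene, was at 127, 113 and 132 CPM at day 3.5 and 75.2, 41.5 and 67.5 CPM at day 2.5. Ighe rose by 1.05 ± 0.11 on the log2 scale (adjusted p = 1.8e-05). The days were separate for both, and replicate 2 had the highest Ighg1 but the lowest Ighe on each day. Set against Ighm in counts per kb of exon, Ighg1 had log2 ratios of -2.41 ± 0.24 at day 3.5 and -2.39 ± 0.15 at day 2.5 (SD, n = 3 each; exact permutation p = 1). The ratio of Ighe to Ighm was higher in 3 of 3 pairs, by 0.23 on the log2 scale (exact permutation p = 0.5 without regard to pairs, 0.643 adjusted over 9 measures). The ratio of Ighg2b to Ighm fell in 2 of 3 pairs, and that of Igha to Ighm in 3 of 3, where it dropped by 0.12 (exact p = 0.3, adjusted 0.643).

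Of the 8 heavy chain constant genes, 6 rose (75%, against 9.9% of all tested genes) and 1, Ighd, fell. The median log2 fold change was 0.70. Rises numbered 5, 5 and 4 without replicates 1, 2 and 3, and 4 with fly scaling. Ighd, the constant gene of IgD, averaged 38.8 ± 3.43 CPM at day 3.5 and 55.7 ± 4.06 CPM at day 2.5 (SD, n = 3 each). Ighd fell by 0.52 ± 0.09 on the log2 scale (adjusted p = 0.0011). Ighg3 (log2 fold change 0.67 ± 0.09, adjusted p = 9.3e-05) and Ighg2b (log2 fold change 0.48 ± 0.11, adjusted p = 0.0059) were called although the days overlapped: replicate 2 was the highest on both days, and each pair rose. Ighg2b was not called without replicate 3 (adjusted p = 0.11). Without the replicate block neither gene was called (adjusted p = 0.052 for Ighg3 and 0.24 for Ighg2b), nor was Igha (0.21). Ighg2c was not called (log2 fold change 0.25 ± 0.14, adjusted p = 0.23). Igha averaged 6.03 ± 1.96 CPM at day 3.5 and 3.59 ± 0.543 CPM at day 2.5 and was called with all 3 pairs (log2 fold change 0.72 ± 0.24, adjusted p = 0.047). Leaving out replicate 1, 2 or 3 ended that call (adjusted p = 0.12, 0.25 and 0.14). These counts hold germline and switched transcripts, and membrane and secreted forms, together, and reads shared between Ighg2b and Ighg2c are uncertain.

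**Figure D2:**
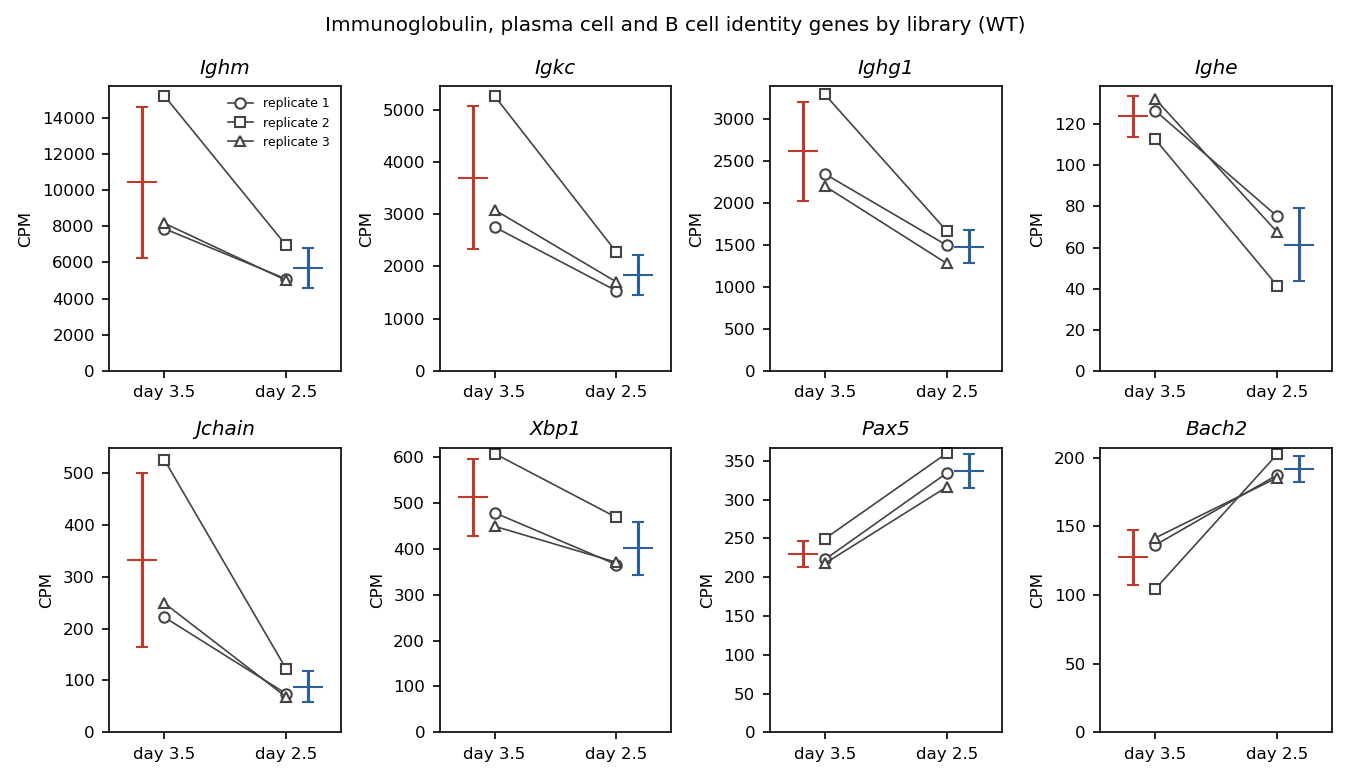
CPM of 8 genes in each WT library, day 3.5 left and day 2.5 right, with lines joining same-numbered replicates and bars for the mean and SD of 3 libraries. Ighm, Igkc, Ighg1, Ighe, Jchain and Xbp1 are higher at day 3.5 in each of the 3 pairs, and Pax5 and Bach2 are lower in each.

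Many genes of the plasma cell program rose. Of 21 tested members, 14 rose (66.7%, against 9.9% of all tested genes) and none fell. The median log2 fold change was 0.42 against 0.01 over all tested genes. Rises numbered 10, 11 and 10 without replicates 1, 2 and 3, and 5 with fly scaling. Prdm1, the transcription factor that drives plasma cell differentiation, was at 38.8, 64.1 and 33.05 CPM at day 3.5 and 34.7, 41.7 and 23.9 CPM at day 2.5, and the days overlapped. Prdm1 rose by 0.42 ± 0.11 on the log2 scale (adjusted p = 0.013), a call that was lost without replicate 2 (adjusted p = 0.14) and without replicate 3 (0.1). Without the replicate block Prdm1 was not called either (adjusted p = 0.16). Xbp1, the factor of the secretory unfolded protein response, averaged 511 ± 84.1 CPM at day 3.5 and 401 ± 57.9 CPM at day 2.5 (SD, n = 3 each). Xbp1 rose by 0.35 ± 0.07 on the log2 scale (adjusted p = 0.0029), which became 0.053 without replicate 1. Irf4, needed for plasma cells and for switching, averaged 377 ± 28.6 CPM at day 3.5 and 313 ± 33.3 CPM at day 2.5. Irf4 was not called, with a log2 fold change of 0.27 ± 0.09 (adjusted p = 0.055). Sdc1, the plasma cell surface proteoglycan CD138, averaged 13.3 ± 2.31 CPM at day 3.5 and 7.83 ± 0.417 CPM at day 2.5. Sdc1 rose by 0.76 ± 0.17 on the log2 scale (adjusted p = 0.0067), which became 0.059 without replicate 2. With fly scaling Prdm1, Xbp1 and Sdc1 were not called (adjusted p = 0.455, 0.504 and 0.107).

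Other rises of the program were in Mzb1, a chaperone of IgM assembly (0.61 ± 0.10), the disulphide isomerase Txndc5 (0.58 ± 0.09) and Edem1, a lectin of ER-associated degradation (0.51 ± 0.07). Ell2, an elongation factor that promotes the secreted form of Ig heavy chain RNA (0.41 ± 0.07), and the chemokine receptor Cxcr4 (0.71 ± 0.09) rose too. All 5 were called without each replicate in turn, while Txndc5, Edem1 and Ell2 were not called with fly scaling (adjusted p = 0.076, 0.15 and 0.41).

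The general machinery of the endoplasmic reticulum (ER) had few calls. Of 33 genes of ER folding and the unfolded protein response, 1 rose and 2 fell, 9.09% against 16.9% of all tested genes. The rise was in Edem2, of ER-associated degradation (0.40 ± 0.09), and the falls in Ero1lb, an oxidase of disulphide formation (-0.40 ± 0.08), and Sdf2l1 (-0.32 ± 0.08). Edem2 was not called without replicate 2 (adjusted p = 0.097), nor Sdf2l1 without replicate 1 or 3 (0.11 and 0.096). The ER stress response element (ERSE, both strands) lay in the 250 bases before the start of 8 of 29 members with a promoter sequence, against 0.175% of 9154 tested genes. The letters TGACGTGG, an XBP1 and ATF6 site, were found on either strand in 0 of 29, against 0.885%. Among 45 genes of translocation and secretory traffic, 6 rose, 13.3% against 9.9% of all tested genes, and 1 fell. Rises numbered 3, 1 and 3 without replicates 1, 2 and 3, and 0 with fly scaling. Tram1, part of the translocation channel, averaged 239 ± 9.25 CPM at day 3.5 and 178 ± 9.98 CPM at day 2.5. Tram1 rose by 0.43 ± 0.07 on the log2 scale (adjusted p = 0.001), which became 0.35 with fly scaling.

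Among 28 genes of B cell identity, 8 fell and 3 rose, with a median of -0.07. The shares were 28.6% and 10.7%, against 7.02% and 9.9% of all tested genes, so that the rises were near that share. Falls numbered 5, 9 and 5 without replicates 1, 2 and 3, and 3 with fly scaling. Pax5, the factor that maintains B cell identity, was at 222.9, 249.7 and 217.8 CPM at day 3.5 and 334, 359.9 and 316 CPM at day 2.5, with no overlap. Pax5 fell by 0.55 ± 0.07 on the log2 scale (adjusted p = 4.4e-05). Bach2, the repressor that holds back Prdm1, was at 136, 104 and 142 CPM at day 3.5 and 187, 203 and 185 CPM at day 2.5. Bach2 fell by 0.60 ± 0.11 on the log2 scale (adjusted p = 0.0011). Its lowest library was replicate 2 of day 3.5, where Jchain was highest. Id3, an inhibitor of E proteins (-0.83 ± 0.15), Ets1, a factor that restrains plasma cell formation (-0.44 ± 0.08), and Bcl11a (-0.34 ± 0.07) also fell. Bcl6, the repressor of the germinal centre program, averaged 22.8 ± 4.48 CPM at day 3.5 and 12.7 ± 2.33 CPM at day 2.5 (SD, n = 3 each). Bcl6 rose by 0.84 ± 0.15 on the log2 scale (adjusted p = 0.0015).

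Genes of uracil excision and mismatch repair, the pathways that process the DNA lesions of class switching, were counted in 1 list with other factors such as Exosc3 and Polh. Part of this list fell. Of 24 tested 5 fell and 1 rose, 20.8% and 4.17% against 7.02% and 9.9% of all tested genes. Falls numbered 2, 5 and 2 without replicates 1, 2 and 3, and 0 with fly scaling. The exosome subunit Exosc3, part of a complex that degrades nuclear RNA, averaged 39.6 ± 1.81 CPM at day 3.5 and 55.1 ± 4.66 CPM at day 2.5 (SD, n = 3 each). Exosc3 fell by 0.47 ± 0.09 on the log2 scale (adjusted p = 0.0023). The others were the DNA ligase Lig1 (-0.36 ± 0.07), the apurinic endonuclease Apex1 (-0.33 ± 0.08), the uracil glycosylase Ung (-0.31 ± 0.10, adjusted p = 0.045) and the lesion-bypass polymerase Polh (-0.30 ± 0.08). Ung was not called when any 1 replicate was left out (adjusted p = 0.075, 0.13 and 0.25 without replicates 1, 2 and 3). Without the replicate block Ung was not called (adjusted p = 0.075). Apex1 was not called without replicate 1 or 3 (adjusted p = 0.11 and 0.072), nor was Polh (0.15 and 0.13). End joining and break signalling had 0 rises and 2 falls among 26 genes, 7.69% against 16.9% of all tested genes. Homologous recombination and crosslink repair had 1 rise and 3 falls among 24, 16.7%, a share like that of all genes.

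Many genes of the dividing cell fell, the canonical histones in the largest share. These histone genes are transcribed in S phase, and their messenger RNAs lack a poly(A) tail, a class that ribosomal RNA depletion retains. Of 41 tested genes in the histone list 39 fell (95.1%, against 7.02% of all tested genes) and 1 rose. The median log2 fold change was -0.51. The rise was in H1f0, a linker histone that does not depend on replication. Falls numbered 33, 38 and 27 without replicates 1, 2 and 3, and 28 with fly scaling. With all 16 spleen libraries and a term for the library run, 9 fell. Over all 64 tested genes with a canonical histone symbol 49 fell and 0 rose. Hist1h4b, an H4 gene, was at 256, 250.3 and 218.1 CPM at day 3.5 and 404, 436 and 429.7 CPM at day 2.5, with wide separation of the days. Hist1h4b fell by 0.81 ± 0.08 on the log2 scale (adjusted p = 6.6e-06). Hist1h1a, a linker histone, averaged 386 ± 3.93 CPM at day 3.5 and 616 ± 32.6 CPM at day 2.5 (SD, n = 3 each). Hist1h1a fell by 0.67 ± 0.07 on the log2 scale (adjusted p = 1.4e-05). Hist1h2ae, an H2A gene, averaged 59.4 ± 11.4 CPM at day 3.5 and 109 ± 7.27 CPM at day 2.5 (SD, n = 3 each). Hist1h2ae fell by 0.89 ± 0.11 on the log2 scale (adjusted p = 4.2e-05). Canonical histone genes together took 1.27% ± 0.06 of mouse counts at day 3.5 and 1.80% ± 0.11 at day 2.5 (SD, n = 3 each). The share was lower in 3 of 3 pairs (exact permutation p = 0.1, the smallest possible). The 2 other WT day 2.5 libraries, replicates 4 and 5 with library numbers 21 and 15, had shares of 1.63% and 0.961%, the second of them below every day 3.5 library. Histone genes are near-identical copies, so single members are uncertain where reads could be placed in several of them.

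In the 250 bases before the start, the letters CCAAT on either strand, the box bound by NF-Y, were found in 31 of 38 histone genes with a promoter sequence, against 41.4% of 9154 tested genes with one. The octamer ATTTGCAT was found in 8 of 38, against 1.66%, and the H1 box AAACACA in 5 of 38, against 4.85%. These 3 searches were added after the values were seen. The 120 bases before the start of 3 of the genes in this list are shown because each fell without each replicate in turn and with fly scaling, Hist1h4a (an H4 gene) by 0.73 on the log2 scale with all 3 pairs (adjusted p = 1.1e-05). They run 5′ to 3′ on the strand of the gene, from RefSeq (GRCm38.p6), with CCAAT or its reverse complement in capitals.
Hist1h4a (chr13:23761250-23761369, minus strand): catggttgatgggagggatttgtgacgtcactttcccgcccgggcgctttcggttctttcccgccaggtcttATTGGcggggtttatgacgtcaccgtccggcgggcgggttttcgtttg
Hist1h1a (chr13:23763548-23763667, plus strand): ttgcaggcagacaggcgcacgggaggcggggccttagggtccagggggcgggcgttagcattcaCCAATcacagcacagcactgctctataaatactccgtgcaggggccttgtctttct
Hist1h2ae (chr13:23571221-23571340, minus strand): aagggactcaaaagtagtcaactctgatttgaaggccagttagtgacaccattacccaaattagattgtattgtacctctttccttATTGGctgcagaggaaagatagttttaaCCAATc

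The fall reached the rest of the cycle, more weakly. Of 42 genes of DNA replication and S phase 15 fell (35.7%, against 7.02% of all tested genes) and none rose, with a median of -0.19. Falls numbered 7, 12 and 7 without replicates 1, 2 and 3, and 2 with fly scaling. Pcna, the sliding clamp of the polymerases, was at 324, 350.2 and 344 CPM at day 3.5 and 457, 434 and 498 CPM at day 2.5. Pcna fell by 0.45 ± 0.08 on the log2 scale (adjusted p = 0.0017). Pold1, the catalytic subunit of polymerase delta, averaged 192 ± 11.1 CPM at day 3.5 and 266 ± 9.44 CPM at day 2.5 (SD, n = 3 each). Pold1 fell by 0.47 ± 0.08 on the log2 scale (adjusted p = 0.0011). The helicase subunits Mcm2 (-0.37 ± 0.07) and Mcm7 (-0.41 ± 0.08), thymidine kinase Tk1 (-0.48 ± 0.08) and the primase-associated polymerase Pola1 (-0.38 ± 0.08) fell too.

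Of 40 genes of G2 and mitosis 17 fell (42.5%, against 7.02% of all tested genes) and none rose, with a median of -0.23. Falls numbered 6, 15 and 2 without replicates 1, 2 and 3, and 2 with fly scaling. Plk1, the polo-like kinase of mitotic entry, was at 137, 154 and 126 CPM at day 3.5 and 195, 193 and 185 CPM at day 2.5. Plk1 fell by 0.46 ± 0.07 on the log2 scale (adjusted p = 0.00038). Nek2, a kinase of centrosome separation, averaged 88.2 ± 6.31 CPM at day 3.5 and 135 ± 2.20 CPM at day 2.5 (SD, n = 3 each). Nek2 fell by 0.61 ± 0.07 on the log2 scale (adjusted p = 4.3e-05). Plk1 and Nek2 were called without each replicate and with fly scaling. Aurkb, of the chromosomal passenger complex (-0.40 ± 0.08), Cdc20, the activator of the anaphase-promoting complex (-0.39 ± 0.08), Bub1b, of the spindle checkpoint (-0.36 ± 0.07), and Birc5, survivin (-0.36 ± 0.08), also fell. Each lost its call without replicate 3 (adjusted p = 0.06, 0.082, 0.052 and 0.058), Birc5 also without replicate 1 (0.064). Mki67, the classical proliferation marker, averaged 745 ± 25.6 CPM at day 3.5 and 753 ± 74.3 CPM at day 2.5. Mki67 was not called, with a log2 fold change of -0.01 ± 0.11 (adjusted p = 0.96).

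The CHR element TTTGAA, known from promoters of G2 and mitosis genes, lay on either strand in the 250 bases before the start of 13 of 33 mitosis genes with a promoter sequence, against 1190 of 9154 tested genes. CCAAT lay there in 27 of 33. For the S phase list, the E2F sequence TTTGGCGC was found in 3 of 33, against 0.983%, and TTTCCCGC in 3 of 33, against 2.15%. The 120 bases before the start of Cdc20 are shown because they hold both TTTGAA and CCAAT, in capitals, from RefSeq (GRCm38.p6).
Cdc20 (chr4:118437344-118437463, minus strand): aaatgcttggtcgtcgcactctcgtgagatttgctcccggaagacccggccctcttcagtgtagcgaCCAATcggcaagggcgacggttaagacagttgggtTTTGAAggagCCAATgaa

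Of 10 cyclins and early drivers of the cycle 3 fell (30%, against 7.02% of all tested genes) and none rose. Falls numbered 1, 1 and 2 without replicates 1, 2 and 3, and 1 with fly scaling. Ccnd3, a D-type cyclin, was at 124, 131 and 127 CPM at day 3.5 and 188, 247 and 194 CPM at day 2.5, with no overlap. Ccnd3 fell by 0.71 ± 0.08 on the log2 scale (adjusted p = 3.5e-05). Ccnd2, the D-type cyclin induced by mitogens, averaged 1077 ± 127 CPM at day 3.5 and 1356 ± 39.5 CPM at day 2.5. Ccnd2 fell by 0.34 ± 0.09 on the log2 scale (adjusted p = 0.014), which became 0.071 without replicate 1 and 0.082 without replicate 2. Myc, the growth-induced transcription factor, averaged 168 ± 21.7 CPM at day 3.5 and 183 ± 28.3 CPM at day 2.5. Myc was not called, with a log2 fold change of -0.13 ± 0.11 (adjusted p = 0.46). Of 17 cell cycle inhibitors and exit genes 9 rose and 1 fell, with a median of 0.34. The shares were 52.9% and 5.88%, against 9.9% and 7.02% of all tested genes. Rises numbered 8, 4 and 3 without replicates 1, 2 and 3, and 3 with fly scaling. Cdkn1a, which encodes the kinase inhibitor p21, was at 55.97, 96.5 and 62.01 CPM at day 3.5 and 15.2, 23.7 and 13.3 CPM at day 2.5, with the days far apart. Cdkn1a rose by 2.04 ± 0.11 on the log2 scale (adjusted p = 6e-08), which is 4.11-fold. Mxd4, an antagonist of MYC, averaged 58.1 ± 10.3 CPM at day 3.5 and 28.2 ± 5.59 CPM at day 2.5 (SD, n = 3 each). Mxd4 rose by 1.05 ± 0.14 on the log2 scale (adjusted p = 0.00011). Foxo3, a forkhead factor of quiescence, averaged 70.3 ± 3.72 CPM at day 3.5 and 49.6 ± 3.48 CPM at day 2.5 (SD, n = 3 each). Foxo3 rose by 0.50 ± 0.09 on the log2 scale (adjusted p = 0.0011), which became 0.26 with fly scaling. Cdkn2d, an INK4 inhibitor, was the member that fell (log2 fold change -0.65 ± 0.15, adjusted p = 0.0088), and it was not called without replicate 1 (adjusted p = 0.067).

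Many targets of p53 rose. Of 25 tested genes in this list, which holds Trp53 itself, 16 rose, 9 were not called and none fell. The rises were 64% of the list, against 9.9% of all tested genes, and its median log2 fold change was 0.55. Rises numbered 14, 13 and 14 without replicates 1, 2 and 3, and 11 with fly scaling. Zmat3, an RNA-binding growth suppressor, was at 97.3, 144 and 124 CPM at day 3.5 and 43.1, 55.1 and 47.8 CPM at day 2.5, with no overlap. Zmat3 rose by 1.31 ± 0.08 on the log2 scale (adjusted p = 1.2e-07). Trp53inp1, a stress protein, averaged 71.9 ± 21.2 CPM at day 3.5 and 30.1 ± 6.23 CPM at day 2.5 (SD, n = 3 each). Trp53inp1 rose by 1.24 ± 0.09 on the log2 scale (adjusted p = 3.5e-07). Phlda3, an inhibitor of AKT, averaged 30.8 ± 10.4 CPM at day 3.5 and 11.2 ± 3.10 CPM at day 2.5 (SD, n = 3 each). Phlda3 rose by 1.44 ± 0.13 on the log2 scale (adjusted p = 4.9e-06). Plk2, a polo-like kinase (1.59 ± 0.16), Psrc1, a spindle protein (1.03 ± 0.10), Sesn2, a leucine sensor of the sestrin family (0.86 ± 0.12), and the death receptors Fas (0.81 ± 0.12) and Tnfrsf10b (1.07 ± 0.12) rose in the same list. Trp53 itself, named after its values were seen, was not called (log2 fold change -0.14, adjusted p = 0.2), and neither was Mdm2, its ubiquitin ligase and target (0.23, adjusted p = 0.055). In replicate 2 of day 3.5, Cdkn1a, Zmat3, Trp53inp1, Phlda3 and Plk2 were each at their highest of the 6 libraries, and so were Jchain, Ighm and Igkc.

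**Figure D3:**
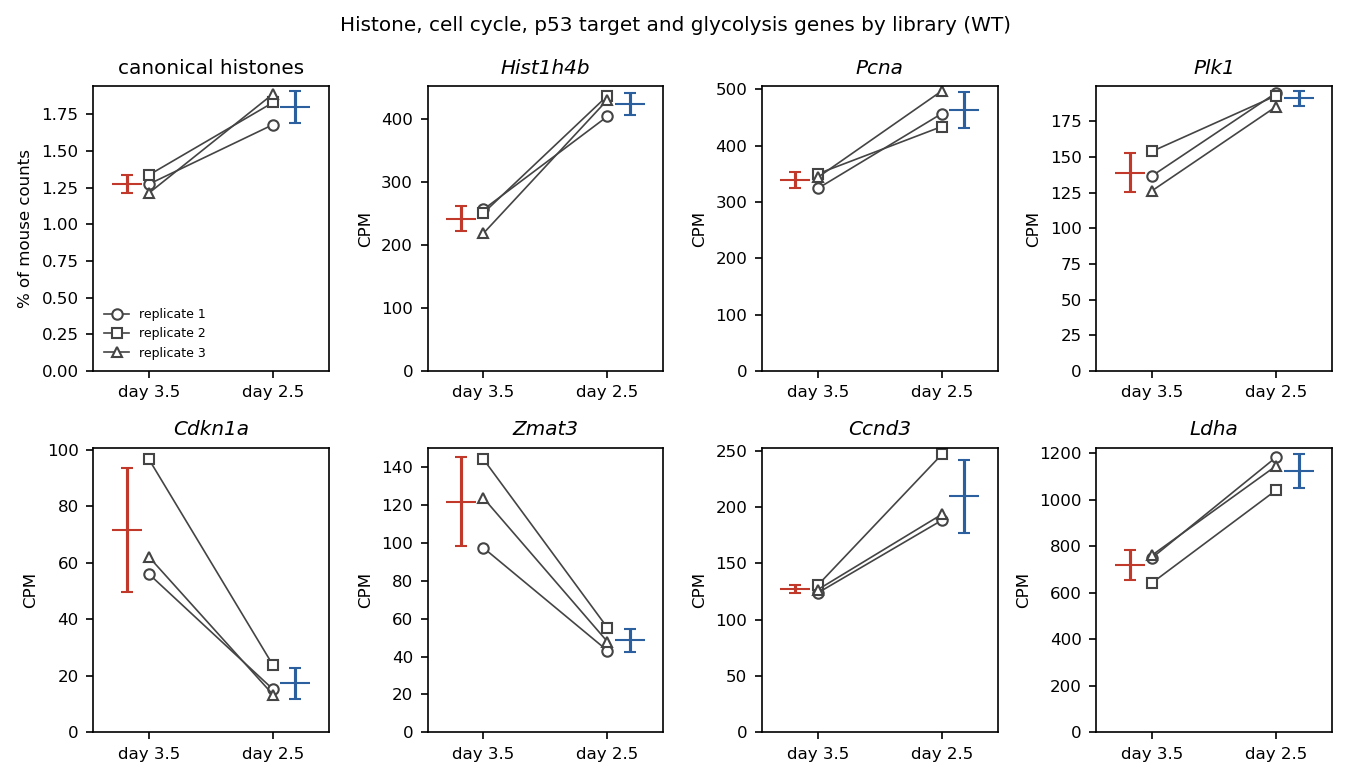
Levels in each WT library, day 3.5 left and day 2.5 right, as percent of mouse counts for all canonical histone genes and in CPM for 7 genes, with lines joining same-numbered replicates and bars for the mean and SD of 3 libraries. Histones, Pcna, Plk1, Ccnd3 and Ldha are lower at day 3.5 in each of the 3 pairs, and Cdkn1a and Zmat3 are higher in each.

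Genes of cell death and survival had 5 rises and no fall among 15 of the BCL2 family. The rises were 33.3% of the list, against 9.9% of all tested genes. Rises numbered 3, 3 and 3 without each replicate in turn, and 1 with fly scaling. Bcl2l11, the BH3-only killer BIM, was at 259, 266 and 268 CPM at day 3.5 and 136, 132 and 127 CPM at day 2.5, with tight replicates. Bcl2l11 rose by 1.01 ± 0.07 on the log2 scale (adjusted p = 3.6e-07), which is 2.01-fold. Bcl2l1, which encodes its antagonist BCL-XL, averaged 162 ± 0.624 CPM at day 3.5 and 127 ± 5.83 CPM at day 2.5 (SD, n = 3 each). Bcl2l1 rose by 0.35 ± 0.07 on the log2 scale (adjusted p = 0.0037), which became 0.54 with fly scaling. Bbc3, the p53-induced killer PUMA, rose as well (log2 fold change 0.63 ± 0.13, adjusted p = 0.0035) but was not called without replicate 2 (adjusted p = 0.0501). Pmaip1, another BH3-only killer (0.38 ± 0.11), was not called when any 1 replicate was left out (adjusted p = 0.055, 0.28 and 0.11 without replicates 1, 2 and 3). Without the replicate block Pmaip1 was not called (adjusted p = 0.11). Bcl2l2, a survival gene (0.38 ± 0.11), was not called without replicate 1 or 3 (0.25 and 0.2).

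Surface molecules of activated B cells changed in both directions. Of 25 genes of activation and costimulation 12 rose and 4 fell, with a median of 0.36. The shares were 48% and 16%, against 9.9% and 7.02% of all tested genes. Rises numbered 6, 4 and 4 without replicates 1, 2 and 3, and 5 with fly scaling. Cd44, the hyaluronan receptor, averaged 888 ± 35.5 CPM at day 3.5 and 528 ± 57.96 CPM at day 2.5 (SD, n = 3 each). Cd44 rose by 0.76 ± 0.07 on the log2 scale (adjusted p = 6.6e-06). Il2ra, the alpha chain of the IL-2 receptor, averaged 129 ± 31.6 CPM at day 3.5 and 73.6 ± 1.73 CPM at day 2.5 (SD, n = 3 each). Il2ra rose by 0.78 ± 0.13 on the log2 scale (adjusted p = 0.00095). Cd38, an ectoenzyme, averaged 8.29 ± 2.88 CPM at day 3.5 and 16.4 ± 0.357 CPM at day 2.5 (SD, n = 3 each). Cd38 fell by 1.02 ± 0.18 on the log2 scale (adjusted p = 0.0015). Slamf1, a homotypic receptor, fell as well (log2 fold change -0.99 ± 0.16, adjusted p = 0.00063). Icosl, the ligand of the costimulatory receptor ICOS, fell the most of the list but at a low level, 0.262, 0.741 and 0.573 CPM at day 3.5 and 1.68, 2.43 and 2.29 CPM at day 2.5. Icosl fell by 2.01 ± 0.43 on the log2 scale (adjusted p = 0.005).

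In the TNF superfamily 4 of 16 genes rose and 3 fell, 25% and 18.8% against 9.9% and 7.02% of all tested genes. Without replicates 1, 2 and 3 the falls were 0, 2 and 0. Tnfrsf8, which encodes CD30, was at 204, 160.4 and 215.5 CPM at day 3.5 and 106, 102 and 107 CPM at day 2.5. Tnfrsf8 rose by 0.87 ± 0.08 on the log2 scale (adjusted p = 6.2e-06). Its ligand Tnfsf8 averaged 3.81 ± 0.743 CPM at day 3.5 and 1.15 ± 0.152 CPM at day 2.5 (SD, n = 3 each). Tnfsf8 rose by 1.70 ± 0.35 on the log2 scale (adjusted p = 0.0033). Tnfrsf26, another receptor of the superfamily, averaged 23.2 ± 1.97 CPM at day 3.5 and 8.19 ± 0.992 CPM at day 2.5 (SD, n = 3 each). Tnfrsf26 rose by 1.50 ± 0.14 on the log2 scale (adjusted p = 6.5e-06). Ltb, the membrane subunit of lymphotoxin, fell (log2 fold change -0.67 ± 0.15, adjusted p = 0.0059) but was not called without replicate 1 or 3 (adjusted p = 0.099 and 0.086). Tnfrsf13c, the receptor for the survival factor BAFF, fell (log2 fold change -0.38 ± 0.08, adjusted p = 0.005), and its call was lost without the same replicates (adjusted p = 0.088 and 0.089).

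Migration receptors were also split, with 6 rises and 4 falls among 16, 37.5% and 25% against 9.9% and 7.02% of all tested genes. Without replicates 1, 2 and 3 there were 4, 3 and 3 rises and 1, 4 and 1 falls. Ccr7, the receptor for T zone chemokines, was at 51.3, 36.4 and 57.9 CPM at day 3.5 and 27.3, 28.5 and 30.5 CPM at day 2.5, and replicate 2 had the smallest rise. Ccr7 rose by 0.73 ± 0.13 on the log2 scale (adjusted p = 0.0015). S1pr2, a receptor that confines B cells to follicles, averaged 6.41 ± 0.338 CPM at day 3.5 and 2.57 ± 0.502 CPM at day 2.5 (SD, n = 3 each). S1pr2 rose by 1.32 ± 0.26 on the log2 scale (adjusted p = 0.0028). S1pr1, the egress receptor, was not called (log2 fold change 0.26 ± 0.15, adjusted p = 0.29). Of 20 integrins and adhesion molecules 2 rose and 3 fell, 10% and 15% against 9.9% and 7.02% of all tested genes. The rises were in Alcam (log2 fold change 1.05 ± 0.10, adjusted p = 8.1e-06) and Itgb3, an integrin beta chain (log2 fold change 0.74 ± 0.08, adjusted p = 2.5e-05).

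Receptor signalling genes had as many falls as rises. Of 26 genes of B cell receptor signalling 4 rose and 4 fell, 15.4% each against 9.9% and 7.02% of all tested genes. Without replicates 1, 2 and 3 there were 2, 1 and 1 rises and 1, 4 and 3 falls. With fly scaling there were 0 rises and 1 fall. Syk, the kinase that couples the receptor to its pathway, was at 179.9, 183 and 179.7 CPM at day 3.5 and 279, 312 and 279 CPM at day 2.5, with day 3.5 libraries that hardly differed. Syk fell by 0.68 ± 0.07 on the log2 scale (adjusted p = 1.1e-05). Cd81, a tetraspanin, averaged 193 ± 29.4 CPM at day 3.5 and 126 ± 1.91 CPM at day 2.5 (SD, n = 3 each). Cd81 rose by 0.60 ± 0.08 on the log2 scale (adjusted p = 0.00016), which became 0.073 with fly scaling. Among 22 genes of Toll-like receptor and LPS sensing 3 rose and 2 fell, 13.6% and 9.09% against 9.9% and 7.02% of all tested genes. Without replicates 1, 2 and 3 there were 3, 2 and 2 rises and 1, 1 and 1 falls in that list. Tlr7, the receptor for single-stranded RNA, averaged 145 ± 10.1 CPM at day 3.5 and 88.6 ± 7.01 CPM at day 2.5 (SD, n = 3 each). Tlr7 rose by 0.71 ± 0.08 on the log2 scale (adjusted p = 1.9e-05). Myd88, the common adaptor, averaged 86.5 ± 6.13 CPM at day 3.5 and 123 ± 2.37 CPM at day 2.5 (SD, n = 3 each). Myd88 fell by 0.51 ± 0.08 on the log2 scale (adjusted p = 0.00033). Ticam2, the adaptor of TLR4 in endosomes, rose (log2 fold change 0.53 ± 0.09, adjusted p = 0.00097).

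Of 18 NF-kB subunits and inhibitors 22.2% fell and 5.56% rose, against 7.02% and 9.9% of all tested genes. The 4 falls were in Bcl3 (-0.39 ± 0.09), Nfkbiz (-0.52 ± 0.11), Nfkbid (-0.42 ± 0.10) and Nfkbia (-0.24 ± 0.07), and the subunit gene Rel rose (0.35 ± 0.09). None of these 5 was called under every omission of a replicate. The highest adjusted p was 0.2 for Rel (without replicate 3), 0.18 for Nfkbia, 0.064 for Nfkbiz and 0.056 for Bcl3 (without replicate 1), and 0.086 for Nfkbid (without replicate 2). Within the IL-4 and STAT6 list of 22 genes, 7 rose and 1 fell, with 4, 6 and 5 rises without replicates 1, 2 and 3. The shares were 31.8% and 4.55%, against 9.9% and 7.02% of all tested genes. The STAT6 site was found in the promoter stretch of 1 of 20 members, against 5.62% of all genes. Stat5a, a transcription factor of cytokine receptors, averaged 309 ± 42.6 CPM at day 3.5 and 192 ± 11.6 CPM at day 2.5 (SD, n = 3 each). Stat5a rose by 0.68 ± 0.09 on the log2 scale (adjusted p = 0.00015). Socs3, a feedback inhibitor of cytokine signalling, was at 46.01, 27.01 and 39.02 CPM at day 3.5 and 59.3, 111 and 52.1 CPM at day 2.5, highest in replicate 2 of day 2.5. Socs3 fell by 0.95 ± 0.26 on the log2 scale (adjusted p = 0.019), which became 0.17 without replicate 2.

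About as many immediate-early genes rose as were not called. They encode transcription factors and phosphatases that cells induce within minutes of a stimulus. Of 25 tested 12 rose (48%, against 9.9% of all tested genes), 13 were not called and none fell. Pair medians were 0.30, 0.84 and 0.15 for replicates 1, 2 and 3. Rises numbered 9, 7 and 8 without replicates 1, 2 and 3, and 8 with fly scaling. Fos was at 25.7, 51.3 and 17.6 CPM at day 3.5 and 10.3, 4.94 and 8.53 CPM at day 2.5. Fos rose by 1.90 ± 0.31 on the log2 scale (adjusted p = 0.00068). Fosb was at 18.4, 28.6 and 14.2 CPM at day 3.5 and 9.78, 3.86 and 4.68 CPM at day 2.5. Fosb rose by 1.76 ± 0.27 on the log2 scale (adjusted p = 0.00038). The day 3.5 libraries spread widely for both, with replicate 2 highest, and the days did not overlap. Egr2, a zinc finger factor induced by antigen receptors, averaged 132 ± 41.7 CPM at day 3.5 and 71.2 ± 13.001 CPM at day 2.5 (SD, n = 3 each). Egr2 rose by 0.86 ± 0.17 on the log2 scale (adjusted p = 0.0029). The MAP kinase phosphatases Dusp4 (0.84 ± 0.11) and Dusp5 (1.15 ± 0.12) rose. In the AP-1 and BATF family 2 of 9 genes rose and 1 fell, 22.2% and 11.1% against 9.9% and 7.02% of all tested genes. Jdp2, a repressing AP-1 partner, rose (log2 fold change 1.32 ± 0.15, adjusted p = 2.4e-05). Batf, the AP-1 factor needed for class switching, was at 99.3, 101 and 102 CPM at day 3.5 and 144, 136 and 148 CPM at day 2.5, with no overlap. Batf fell by 0.50 ± 0.09 on the log2 scale (adjusted p = 0.0017).

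Interferon-stimulated genes fell in part. Of 31 tested 9 fell (29.0%, against 7.02% of all tested genes) and none rose, with a median of -0.18. Falls numbered 2, 4 and 5 without replicates 1, 2 and 3, and 1 with fly scaling. Isg15, a ubiquitin-like protein, was at 34.6, 23.6 and 40.1 CPM at day 3.5 and 48.3, 48.1 and 54.7 CPM at day 2.5. Isg15 fell by 0.65 ± 0.12 on the log2 scale (adjusted p = 0.0023). Ifih1, the sensor MDA5, averaged 63.4 ± 8.53 CPM at day 3.5 and 84.6 ± 5.25 CPM at day 2.5 (SD, n = 3 each). Ifih1 fell by 0.42 ± 0.09 on the log2 scale (adjusted p = 0.0035), which became 0.12 with fly scaling.

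Part of the genes of growth metabolism fell, few of them with fly scaling. Of 33 genes of glycolysis and hypoxia 10 fell and 3 rose, with a median of -0.13. The shares were 30.3% and 9.09%, against 7.02% and 9.9% of all tested genes. Falls numbered 3, 9 and 3 without replicates 1, 2 and 3, and 3 with fly scaling. Ldha, the lactate dehydrogenase of glycolysis, was at 751, 643 and 762 CPM at day 3.5 and 1184, 1042 and 1146 CPM at day 2.5, with no overlap. Ldha fell by 0.65 ± 0.08 on the log2 scale (adjusted p = 3.9e-05). Pgk1, phosphoglycerate kinase, averaged 451 ± 55.7 CPM at day 3.5 and 632 ± 49.2 CPM at day 2.5 (SD, n = 3 each). Pgk1 fell by 0.49 ± 0.08 on the log2 scale (adjusted p = 0.00048). The hypoxia response core GACGTG lay on either strand in the 250 bases before the start of 11 of 31 members, against 9.22% of all genes. Eno2, the gamma enolase, was among the rises (log2 fold change 1.65 ± 0.27, adjusted p = 0.00078). Of 32 ribosome biogenesis genes 17 fell (53.1%, against 7.02% of all tested genes) and none rose, with a median of -0.24. Falls numbered 5, 13 and 5 without replicates 1, 2 and 3, and 0 with fly scaling. Nop58, a core protein of box C/D small nucleolar particles, averaged 195 ± 22.7 CPM at day 3.5 and 256 ± 26.1 CPM at day 2.5 (SD, n = 3 each). Nop58 fell by 0.40 ± 0.07 on the log2 scale (adjusted p = 0.0012). Fbl, the methyltransferase fibrillarin, fell (log2 fold change -0.36 ± 0.07, adjusted p = 0.0025) but was not called without replicate 1 (adjusted p = 0.056).

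Of 55 nuclear genes of oxidative phosphorylation 18 fell (32.7%, against 7.02% of all tested genes) and none rose, with a median of -0.18. Falls numbered 1, 22 and 1 without replicates 1, 2 and 3, and 0 with fly scaling. Ndufs1, a complex I subunit, averaged 83.6 ± 3.36 CPM at day 3.5 and 108 ± 4.33 CPM at day 2.5 (SD, n = 3 each). Ndufs1 fell by 0.37 ± 0.08 on the log2 scale (adjusted p = 0.0037). The 13 mitochondrially encoded protein genes had no call and pair medians of 0.54, -0.05 and 0.85. Mitochondrial genes took 0.719% to 1.39% of mouse counts at day 3.5 and 0.574% to 0.778% at day 2.5, and their part in these results was not tested. The 75 ribosomal protein genes had 3 rises and 4 falls, 9.33% against 16.9% of all tested genes.

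Of 17 genes of the ATF4 arm of the stress response 4 rose (23.5%, against 9.9% of all tested genes) and none fell. Their median was 0.41. Rises numbered 4, 3 and 2 without replicates 1, 2 and 3, and 3 with fly scaling. Atf5, a transcription factor of this arm, averaged 122 ± 12.5 CPM at day 3.5 and 72.9 ± 8.04 CPM at day 2.5 (SD, n = 3 each). Atf5 rose by 0.75 ± 0.11 on the log2 scale (adjusted p = 0.00034). Sesn2 averaged 128 ± 20.3 CPM at day 3.5 and 70.4 ± 9.30 CPM at day 2.5 (SD, n = 3 each). Sesn2 rose by 0.86 ± 0.12 on the log2 scale (adjusted p = 0.00015). Atf4 itself, named after its values were seen, was not called (log2 fold change 0.07). The ATF4 element TTGCATCA lay on either strand in the 250 bases before the start of 4 of 16 members with a promoter sequence, against 0.677% of 9154 tested genes. Amino acid enzymes were split, with 5 rises and 4 falls among 19, 26.3% and 21.1% against 9.9% and 7.02% of all tested genes. Without replicates 1, 2 and 3 the falls were 2, 4 and 1. Asns, asparagine synthetase, rose (log2 fold change 0.62 ± 0.09, adjusted p = 0.00035), though not with fly scaling (adjusted p = 0.091). Cth, the cystathionine lyase that makes cysteine (0.96 ± 0.13), Gpt2, a mitochondrial alanine transaminase (0.97 ± 0.15), and Pycr1, of proline synthesis (0.69 ± 0.16), rose. Shmt1, a serine hydroxymethyltransferase that feeds folate carbon into thymidylate, was at 117, 115 and 116 CPM at day 3.5 and 158, 155 and 170.4 CPM at day 2.5. Shmt1 fell by 0.47 ± 0.07 on the log2 scale (adjusted p = 0.00025). Mthfd1, of the same folate cycle, fell (log2 fold change -0.29 ± 0.07, adjusted p = 0.0085). Pycr1 was not called without replicate 2 or 3 (adjusted p = 0.062 and 0.066), nor Mthfd1 without replicate 1 or 3 (0.071 and 0.1).

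Part of the lysosomal genes rose, nearly none of them with fly scaling. Of 33 tested 17 rose (51.5%, against 9.9% of all tested genes), 16 were not called and none fell. The median log2 fold change was 0.34. Rises numbered 10, 9 and 10 without replicates 1, 2 and 3, and 1 with fly scaling. Ctsa, the protective protein cathepsin A, was at 172, 218.3 and 187 CPM at day 3.5 and 120.2, 120.2 and 128 CPM at day 2.5. Ctsa rose by 0.64 ± 0.08 on the log2 scale (adjusted p = 4.2e-05). Ctsd, the aspartic protease cathepsin D, averaged 106 ± 14.9 CPM at day 3.5 and 66.9 ± 3.10 CPM at day 2.5 (SD, n = 3 each). Ctsd rose by 0.66 ± 0.10 on the log2 scale (adjusted p = 0.00027), which became 0.054 with fly scaling. Gaa, acid alpha-glucosidase (0.64 ± 0.09), the progranulin gene Grn (0.60 ± 0.10) and Lamp1, a lysosomal membrane protein (0.47 ± 0.08), rose. The days did not overlap for any of these 5 genes. Tfeb, the transcription factor that drives lysosomal genes, was not called (log2 fold change -0.09) and was named after its values were seen.

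The letters TCACGTGA, known as a binding sequence of TFEB, lay in the 250 bases before the start of 5 of 25 lysosomal genes with a promoter sequence, against 1.96% of 9154 tested genes. This search was added after the values were seen. The 120 bases before the start of both cathepsin genes are shown from RefSeq (GRCm38.p6), with these letters in capitals. The RefSeq start used differs from the outer end of the counted gene. Both stretches lie inside the counted spans, chr2:164832873-164841032 for Ctsa and chr7:142371148-142388038 for Ctsd.
Ctsa (chr2:164833653-164833772, plus strand): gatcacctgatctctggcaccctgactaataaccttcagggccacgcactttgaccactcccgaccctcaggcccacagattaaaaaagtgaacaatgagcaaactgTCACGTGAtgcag
Ctsd (chr7:142387828-142387947, minus strand): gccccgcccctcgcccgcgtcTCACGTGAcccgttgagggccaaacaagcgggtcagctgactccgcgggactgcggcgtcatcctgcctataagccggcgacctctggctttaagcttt

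**Figure D4:**
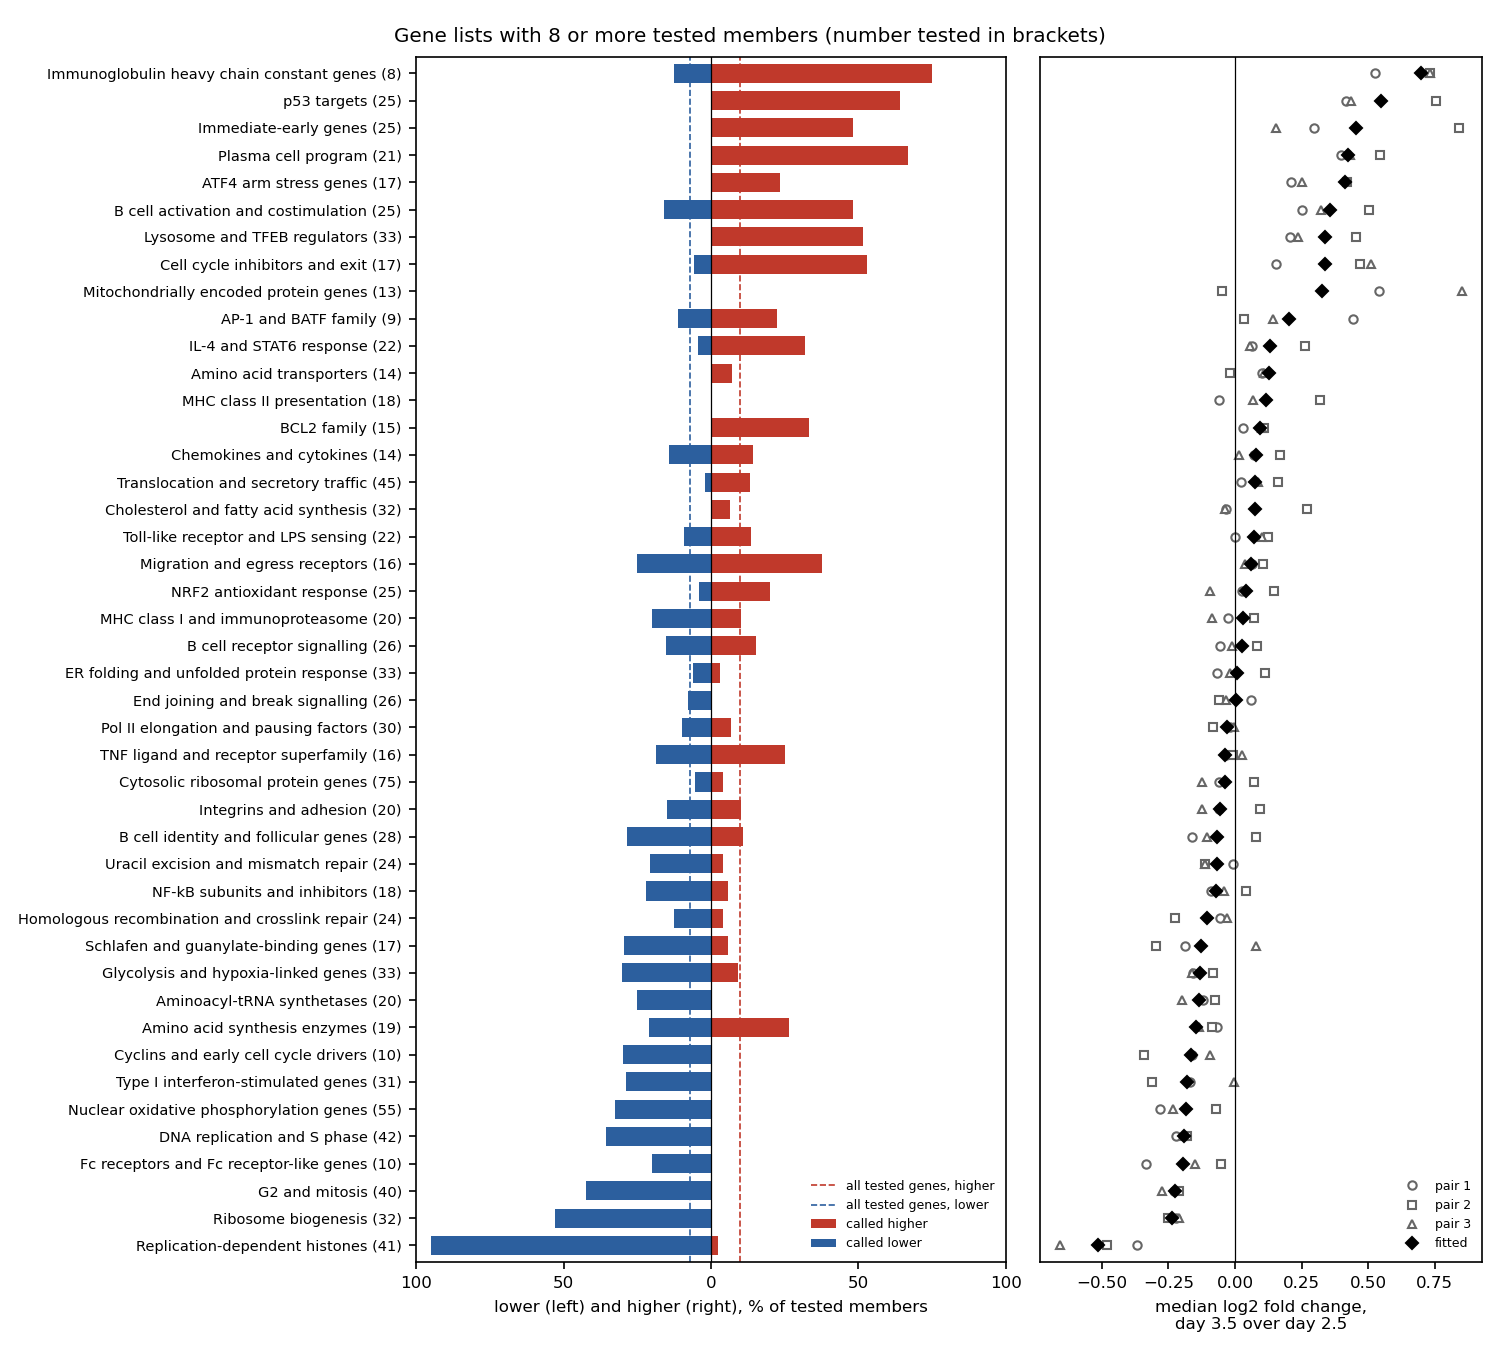
Gene lists with 8 or more tested members, as percent of members called higher (right) and lower (left), with dashed lines for all tested genes (9.9% and 7.02%), and the median log2 fold change from the fit and in each replicate pair. Heavy chain constant genes have the highest median, 0.70, and histone genes the lowest, -0.51, with all 3 pairs below 0.

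Called genes differed in build and level. Called rises spanned a median of 22.6 kb of genome, called falls 15.2 kb and genes not called 18.4 kb. Spans of 100 kb or more made up 15.4% of the rises, 6.32% of the falls and 9.40% of the rest. Protein-coding genes made up 84.7% of called rises, 97.0% of called falls and 85.0% of genes not called. The median level was 25.4 CPM among rises, 97.1 CPM among falls and 22.02 CPM among genes not called. These are descriptions over genes, which are not independent.

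The same day step in cKO cells called 1840 of the 12851 genes (14.3%) in the fit over all 12 libraries. In that fit the WT and cKO calls share 1 estimate of the spread. In separate fits of each genotype over 12056 genes tested in both, 2336 genes were called in WT and 1511 in cKO. Of these, 1079 were called in both, which is 46.2% of the WT calls and 71.4% of the cKO calls, and 1077 of them had the same direction. The sign of the change in cKO was that of WT for 95.6% of the WT calls and for 68.0% of the genes not called in WT. Across genes, which are not independent and share their libraries, Spearman's rho was 0.61 and Pearson's r 0.69 between the WT and cKO changes. In cKO, as in WT, the library numbers of the days did not interleave. Any difference between the preparations of the days could therefore be shared by both genotypes. Its part in the likeness of the WT and cKO changes was not tested. The median over the histone list was -0.51 in WT and -0.48 in cKO, over p53 targets 0.55 in WT and 0.56 in cKO, and over heavy chain constant genes 0.70 in WT and 0.93 in cKO. Not all lists were this close. Medians in WT and cKO were -0.18 and -0.46 for interferon-stimulated genes and -0.13 and -0.29 for glycolysis and hypoxia. They were -0.19 and -0.10 for S phase, -0.18 and -0.10 for nuclear oxidative phosphorylation, and 0.33 and -0.08 for mitochondrially encoded protein genes. For Cdkn1a the change was 2.04 ± 0.11 in WT and 2.06 ± 0.11 in cKO, and for Cd28 3.47 ± 0.24 in WT and 4.17 ± 0.31 in cKO.

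A test of the difference between both day effects (WT minus cKO) called 2 of the 12851 genes (0.0156%), and 836 (6.51%) had an unadjusted p below 0.05. Slpi, which encodes a secreted leukocyte protease inhibitor (minus strand, chr2:164354070-164389095, mm10), was at 54.8, 90.4 and 41.3 CPM at day 3.5 and 70.04, 88.4 and 36.05 CPM at day 2.5 in WT. In cKO it was at 87.2, 66.6 and 96.6 CPM at day 3.5 and 28.04, 32.4 and 31.5 CPM at day 2.5. The WT days overlapped, with replicate 2 highest and replicate 3 lowest on both, while every cKO day 3.5 library was above every cKO day 2.5 library. The day effect of Slpi was -0.05 ± 0.12 in WT and 1.43 ± 0.12 in cKO, a difference of -1.48 ± 0.17 (adjusted p = 0.0036). The other call, the microRNA gene Mir7678 (chr2:164354313-164354383), lies within the span of Slpi on the same strand, so that the counts of both may come from the same reads (-1.57 ± 0.19, adjusted p = 0.0036).

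Next by p, and not called, came Ighg2b, with a day effect of 0.48 ± 0.11 in WT and 1.33 ± 0.12 in cKO. The difference was -0.85 ± 0.16 (unadjusted p = 8.7e-05, adjusted 0.26). For Jchain the day effect was 1.85 ± 0.10 in WT and 2.52 ± 0.10 in cKO, a difference of -0.66 ± 0.14 (adjusted p = 0.36). The differences were 1.85 ± 0.36 for the lactate transporter Slc16a3 and 0.80 ± 0.16 for the ribosomal protein gene Rps27. They were 0.86 ± 0.17 for the actin-binding thymosin Tmsb10 and 0.51 ± 0.11 for Bicra, none past the threshold in the main edgeR fit. With fly scaling edgeR called Slc16a3 and Tmsb10, among 12 genes. With no filter on low counts it called these as well as Rps27, Bicra, Ighg2b and Jchain, among 57. Without the replicate block 0 genes were called by edgeR for this difference and 709 had an unadjusted p below 0.05, while DESeq2 called 2 other genes, Jchain and Rps27, and neither Slpi nor Mir7678.

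**Figure D5:**
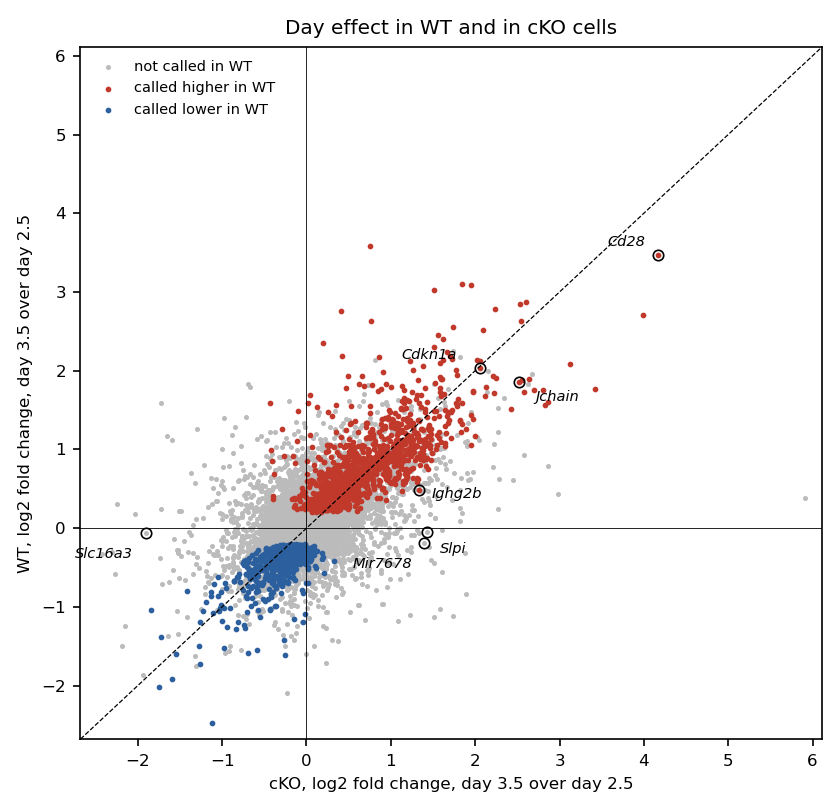
Log2 fold change, day 3.5 over day 2.5, in WT (vertical) against cKO (horizontal) for the 12851 tested genes, coloured by the WT call, with the line of equal change dashed and 7 genes circled. Most WT calls lie in the same quadrant in cKO, and Slpi and Mir7678 lie near 0 in WT and above 1 in cKO.

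Fly scaling, in which counts are set against RNA added per input cell, called 564 of the 2174 genes again, all in the same direction.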

How the data were processed

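RNA of cultured spleen B cells was depleted of ribosomal RNA and made into strand-specific libraries, per the labels' protocols. The authors deposited raw counts of reads per gene, mouse and fly genes in 1 table; of tools and builds, the submitters' processing notes name featureCounts and Bowtie2, and mm10 and dm6. Which gene annotation and strand setting were used, and how reads with several positions were treated, is not given in the sources used.

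Mouse counts were fitted with edgeR 4.0.16 (R 4.3.3) as quasi-likelihood models over 12 libraries, WT and cKO at both days, so that all groups share 1 estimate of the spread; TMM scaling and filterByExpr (minimum count 10) were used, with a term per genotype and replicate number and a day term per genotype. A gene was called at a Benjamini-Hochberg adjusted p below 0.05 over 12851 tested genes. Errors of log2 fold changes are standard errors from the F statistic. CPM of single genes are counts per 1000000 of a library's counts in tested genes, after scaling by its TMM factor. Summed marker CPM are counts per 1000000 mouse counts without that factor. The comparison was set up with same-numbered replicates as pairs. In WT, deviations of same-numbered libraries from the group means correlated at 0.191, 0.196 and 0.191 for replicates 1, 2 and 3. In cKO the values were 0.154, -0.0324 and 0.254. For cKO replicates 1 and 2 the highest correlation with another number was larger (0.162 and 0.0841).

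Named genes were 24 core genes, the 12 largest rises and 12 largest falls among calls whose log2 CPM averaged 1 or more, with 1 direction in all pairs and no overlap, up to 6 called members per list and the 8 smallest p for WT minus cKO. The members, the 54 gene lists and the tests were chosen with earlier results of these data known. Alternatives were other scalings (DESeq2 1.42.0 size factors, fly counts, mouse totals without immunoglobulin genes), filters, robust dispersions, DESeq2, other sets of libraries, fits with no replicate block and leaving out libraries. Promoter letters came from RefSeq (GRCm38.p6) for 9154 tested genes matched by symbol or ID. Genes without a symbol took 0.376% to 0.431% of mouse counts in the 6 libraries and stayed in the fit. The 2 WT libraries of day 2.5 with the lower library numbers 21 and 15 entered the fit only in 1 alternative. The term for library run was set from library numbers alone. Some genes are not reported here.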

Additional observations from a re-analysis of the deposited data

Results flagged for a closer look

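The day effect of 2 genes differed between the genotypes by a test of the difference itself. For Slpi, the protease inhibitor gene, WT minus cKO was -1.48 ± 0.17 on the log2 scale (adjusted p = 0.0036), with cKO higher at day 3.5 in 3 of 3 replicate numbers and WT in 2 of 3. For Mir7678, whose span lies in that of Slpi on the same strand, it was -1.57 ± 0.19 (adjusted p = 0.0036), and reads shared between the 2 genes cannot be told apart. Neither was called without the replicate block or by DESeq2, which called Jchain and Rps27 instead, and cKO libraries of the same number did not all deviate together.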

How the results depend on the processing

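The test called 2174 genes for day 3.5 over day 2.5. All 16 spleen libraries with a term for the library run and no replicate block gave 729, fly scaling 570, and the fits without 1 WT library or pair 942 to 1726, lowest without replicate 3 (942) and replicate 1 (1039). No called gene changed sign under any setting run. With no replicate block the count was 2005, against 2174 with the pairing, and 30 of the 254 named genes lost their call. That number was 25 in DESeq2, 134 with fly scaling, 131 with all 16 libraries, and 85, 43 and 88 without replicates 1, 2 and 3. The cause of the lower counts was not tested, beyond the smaller number of libraries where some were left out.

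For the difference between WT and cKO, which called 2 genes, the fit with no replicate block called 0, all 16 libraries 0, fly scaling 12, no filter on low counts 57 and the fits without a WT library or pair 2 to 4. Genes not called for WT changed sign in places. With all 16 libraries Mir7678 was at 0.31 and Slpi at 0.41. Over the fits that leave out WT libraries Mir7678 ran from -0.30 to 0.0122, Slpi from -0.157 to 0.107, Mki67 from -0.055 to 0.0358, S1pr1 from -0.018 to 0.455 and Slc16a3 from -0.204 to 0.0575. Depth (10160465 to 14967558 mouse counts) limits genes near the filter, and intervals cover counting and library spread only.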

Other observations

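Other gene groups had calls in various numbers. Of 25 genes of the NRF2 antioxidant response 5 rose (2, 3 and 2 without replicates 1, 2 and 3) and 1 fell. Their shares were 20% and 4%, against 9.9% and 7.02% of all tested genes. Hmox1, heme oxygenase, was at 20.3, 30.2 and 21.7 CPM at day 3.5 and 9.98, 8.17 and 11.01 CPM at day 2.5 (adjusted p = 0.0002, 2.46-fold higher). Srxn1, sulfiredoxin (1.52 ± 0.41), was not called without replicate 1 (adjusted p = 0.15). Csf1, the growth factor of macrophages, was at 47.7, 33.5 and 47.7 CPM at day 3.5 and 17.7, 15.1 and 15.9 CPM at day 2.5. Csf1 rose by 1.39 ± 0.11 on the log2 scale (adjusted p = 1.6e-06). Ebi3, a cytokine subunit shared by IL-27 and IL-35, averaged 87.8 ± 3.84 CPM at day 3.5 and 60.2 ± 1.72 CPM at day 2.5 (SD, n = 3 each). Ebi3 rose by 0.54 ± 0.08 on the log2 scale (adjusted p = 0.00027). The days did not overlap for Hmox1 or Csf1.

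In the list of MHC class I and the immunoproteasome 2 of 20 genes rose, 10% against 9.9% of all tested genes, and 4 fell (3, 5 and 1 without replicates 1, 2 and 3). B2m, the light chain of class I molecules, averaged 949 ± 97.6 CPM at day 3.5 and 714 ± 9.39 CPM at day 2.5 (SD, n = 3 each). B2m rose by 0.41 ± 0.08 on the log2 scale (adjusted p = 0.0039). The inducible proteasome subunits Psmb8 (-0.44 ± 0.09), Psmb9 (-0.33 ± 0.08) and Psmb10 (-0.40 ± 0.08) fell. Psmb8 and Psmb9 were not called without replicate 3 (adjusted p = 0.053 and 0.14). None of 18 MHC class II presentation genes was called, against 16.9% of all tested genes. Of 10 tested Fc receptor and Fc receptor-like genes 2 fell, Fcrl5 and Fcrl1 (20%, against 7.02% of all tested genes). Fcrl1 was at 20.1 ± 1.85 CPM at day 3.5 and 35.3 ± 1.51 CPM at day 2.5 (adjusted p = 0.00048). Of 17 Schlafen and guanylate-binding genes 5 fell (2, 3 and 2 without replicates 1, 2 and 3) and 1 rose. The shares were 29.4% and 5.88%, against 7.02% and 9.9% of all tested genes. Gbp7 was at 78.2 ± 12.98 CPM at day 3.5 and 112 ± 9.12 CPM at day 2.5 (adjusted p = 0.00092, lower). Of 20 aminoacyl-tRNA synthetase genes 5 fell (1, 5 and 2 without replicates 1, 2 and 3) and none rose. The falls were 25% of the list, against 7.02% of all tested genes. In cholesterol and fatty acid synthesis 2 of 32 were called, both higher, 6.25% against 16.9% of all tested genes.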
